A study of Homo sapiens with 12 samples.

Results

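The MYC, MAX and MXD network was described here through 10 genes, taken as the rows of the count table that carry the symbols MYC, MYCN, MYCL, MAX, MXD1, MXD3, MXD4, MXI1, MNT and MGA. All 10 symbols were found among the 26485 genes of the table. MYC, MYCN and MYCL were treated as activators, MXD1, MXD3, MXD4, MXI1, MNT and MGA as antagonists, and MAX as the partner that both sides share. The RNA came from PEO1 and COV362, 2 established human cell lines of ovarian carcinoma. The 4 groups were PEO1 given 20 nM prexasertib, PEO1 given DMSO vehicle, COV362 given 20 nM prexasertib and COV362 given DMSO vehicle, with 3 libraries per group lettered A, B and C. Prexasertib inhibits the checkpoint kinase CHK1 and, less strongly, CHK2, which hold back DNA replication and entry into mitosis when DNA is damaged. Both lines carry the source label of parental cells, were grown in the same medium, and were exposed for a time that the labels do not give. Each line stands for itself alone, since 1 line cannot represent other tumours.

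MYC proteins are basic helix-loop-helix leucine zipper transcription factors that bind DNA only as dimers with MAX. The MYC and MAX dimer binds the E-box CACGTG and related sites and activates genes of ribosome production, nucleotide and polyamine synthesis and growth. MXD1, MXI1, MXD3, MXD4 and MNT also pair with MAX, bind the same sites and bring in the SIN3 corepressor with its histone deacetylases. MGA, the largest protein of the network, pairs with MAX inside a variant Polycomb complex called PRC1.6. A parallel branch uses MLX in place of MAX, with MLXIP and MLXIPL as its activating partners.

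Library totals lay between 9390790 and 18262805 counts. Counts scaled to library size (CPM) correlated within groups on the log2 scale at Pearson's r of 0.966 to 0.993. The libraries lettered A stood apart in each group, since the deviation of their genes from the group mean fell with exon length (Spearman's rho across genes of -0.43 to -0.36), against -0.05 to 0.46 in the libraries lettered B and C. Nothing in the labels says whether the letters mark separate cultures, so the p-values measure only the spread between these samples. Of 10 ovarian carcinoma markers, 8 averaged at least 1 CPM in PEO1, where SOX17 was at 0 in all 6 libraries and FOLR1 at 0 in the DMSO libraries, and all 10 did so in COV362. Of 5 leukocyte markers, PTPRC averaged 0.018 CPM or less in all 4 groups, while CD14 averaged 1.37 CPM in PEO1 with prexasertib and 4.27 CPM in PEO1 with DMSO. The leukocyte sum was 0.82 to 2.11 CPM in PEO1 with prexasertib and 3.92 to 5.16 CPM in PEO1 with DMSO, and at most 0.74 CPM in COV362 with prexasertib and 0.66 CPM in COV362 with DMSO. Of 5 fibroblast markers, LUM, DCN and COL3A1 were at or near 0, and COL1A1 averaged 4.65 to 6.18 CPM in the 4 groups. The summed level of the carcinoma markers was 3442 to 4042 CPM in PEO1 with prexasertib and 6599 to 7716 CPM in PEO1 with DMSO, and 2349 to 3557 CPM in COV362 with prexasertib and 2337 to 2886 CPM in COV362 with DMSO. The sum of 3 endothelial markers was 1.32 to 3.62 CPM in PEO1 with prexasertib and 6.43 to 7.38 CPM in PEO1 with DMSO, and 46.5 to 51.0 CPM in COV362 with prexasertib and 73.8 to 88.2 CPM in COV362 with DMSO. Most of it was CDH5, which averaged 45.2 CPM in COV362 with prexasertib and 73.9 CPM in COV362 with DMSO. PECAM1 averaged at most 2.30 CPM and VWF at most 3.06 CPM in any group. The part of these shifts in the results below was not tested.

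MYC was the network's most abundant transcript in all 4 groups, whether the cells had received the drug or not. Levels are compared between genes as CPM, scaled by the trimmed mean of M-values and divided by the exon length in kilobases (CPM per kilobase). On that scale MYC averaged 73.2 ± 14.5 in PEO1 with prexasertib and 92.3 ± 8.8 in PEO1 with DMSO (SD, n = 3 each). In COV362 it averaged 105 ± 19.7 with prexasertib and 88.4 ± 21.9 with DMSO (SD, n = 3 each). MYC made up at least 99.2% of the summed activator level in every library.

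MYCL, a paralogue of narrower expression, was present at a low level, and MYCN, the paralogue best known from neuroblastoma, was barely detected. MYCL averaged 0.39 ± 0.16 CPM per kilobase in PEO1 with prexasertib, 0.32 ± 0.12 in PEO1 with DMSO, 0.50 ± 0.04 in COV362 with prexasertib and 0.48 ± 0.09 in COV362 with DMSO (SD, n = 3 each). MYCN had 2 counts in library C of PEO1 with prexasertib, 3 counts in library B of COV362 with prexasertib and 0 counts in the other 10 libraries. The 3 counts that a library at 0 would still allow correspond to between 0.163 and 0.363 CPM, a floor that covers counting error only. MYCN did not pass the filter on low counts, so 9 of the 10 genes were tested.

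The order below MYC differed between the lines. In PEO1 with DMSO the order was MAX, MXI1, MXD4, MNT, MGA, MXD1, MXD3 and MYCL, in which only MNT and MGA had overlapping libraries. In PEO1 with prexasertib it was MAX, MXI1, MXD1, MGA, MXD4, MNT, MYCL and MXD3, in which MXI1 overlapped MXD1, MGA overlapped MXD4 and MYCL overlapped MXD3. MXD1 thus stood at 12.8 ± 0.99 CPM per kilobase in PEO1 with prexasertib, beside MXI1 at 13.5 ± 1.16, whereas in PEO1 with DMSO it stood at 1.89 ± 0.09 beside MXI1 at 8.85 ± 0.14 (SD, n = 3 each).

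In COV362 MXD4 came directly after MYC. Its level was 18.5 ± 6.16 CPM per kilobase in COV362 with prexasertib and 19.6 ± 2.38 in COV362 with DMSO (SD, n = 3 each). MAX followed at 12.4 ± 2.51 with prexasertib, where its libraries overlapped those of MXD4, and at 11.7 ± 3.09 with DMSO, where they did not. MXD1 averaged 2.12 ± 0.17 with prexasertib and 1.15 ± 0.10 with DMSO (SD, n = 3 each), in both cases overlapping MXD3 next to it.

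**Figure D1:**
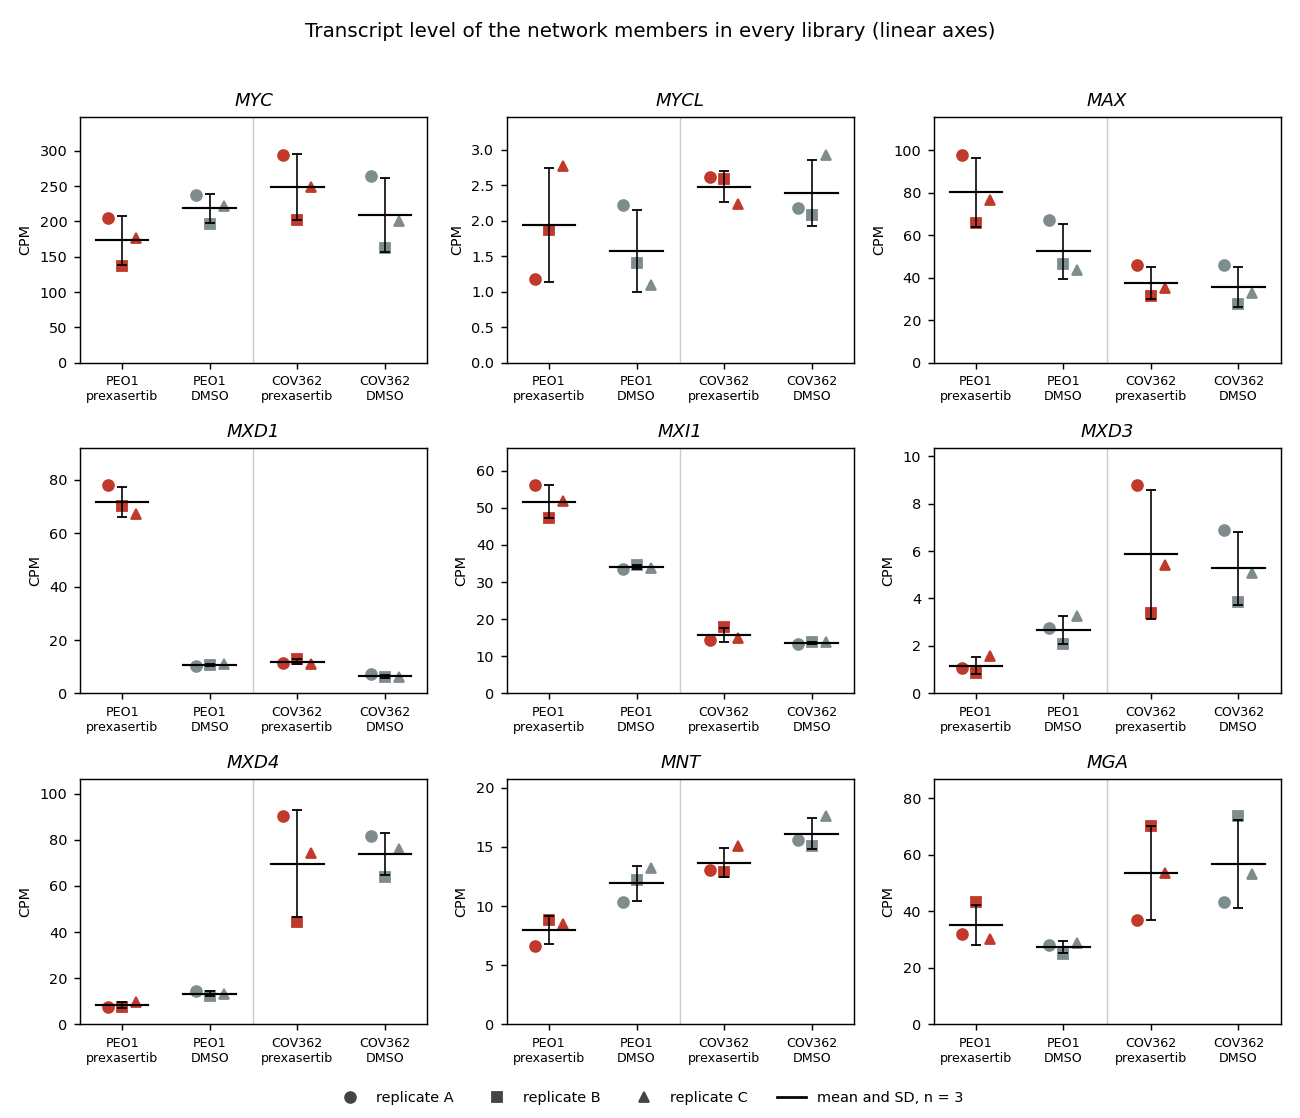
Level of 9 network members in every library, in CPM on linear axes that start at 0, with prexasertib left of DMSO in PEO1 and then in COV362; symbols mark the replicate letter, and the bar and whiskers give the mean and SD of 3 libraries. MXD1 lies between 67.1 and 77.9 CPM in PEO1 with prexasertib and between 10.2 and 11.2 CPM in PEO1 with DMSO, and MYC is highest in library A and lowest in library B in each of the 4 groups.

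In PEO1, prexasertib was accompanied by a change in 5 of the 6 antagonists and in neither of the 2 activators tested. MXD1 and MXI1 rose, while MXD3, MXD4 and MNT fell. The share of all tested genes called in this comparison was 29.3%, with 14.7% higher and 14.6% lower in treated cells. Calls were made in edgeR's quasi-likelihood (QL) test, with p-values adjusted after Benjamini and Hochberg (BH) across 14498 genes and a threshold of 0.05. Of the 9 members tested, 5 were called, and 6 had an unadjusted p under 0.05. The median log2 fold change was 0.31 over the 9 members, -0.10 over the 6 antagonists and 0.01 over all genes tested. The value of 0.31 is that of MYCL, a low-count gene that was not called. MYCL ranged from -0.089 to 0.876 over the alternative fits, so this median does not show a shift of the network.

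MXD1, a repressor classically induced as cells stop dividing and differentiate, showed the greatest change of the network. It was at 77.9, 70.3 and 67.1 CPM in libraries A, B and C of PEO1 with prexasertib, against 10.2, 10.5 and 11.2 CPM in PEO1 with DMSO. The groups were far apart, and every treated library exceeded every vehicle library. Groups that do not overlap, here and for the members below, were found for 50.1% of all tested genes in this comparison. The log2 fold change was 2.76 ± 0.14 (SE), or 6.76-fold, with an adjusted p of 4.7e-08 in edgeR's QL test. In bulk RNA, more transcript per cell and more cells that hold the transcript cannot be told apart, here or in the results that follow. The gene lies at chr2:69915041-69942944 on the plus strand of hg38 in the deposited table, where positions are the outermost exon ends.

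MXI1, also known as MXD2 and long studied as a candidate tumour suppressor, rose less. It was at 56.0, 47.1 and 51.8 CPM in libraries A, B and C of PEO1 with prexasertib, against 33.6, 34.6 and 33.7 CPM in PEO1 with DMSO. The groups did not overlap, and the vehicle libraries were within about 1 CPM of each other. Its log2 fold change was 0.61 ± 0.13 (SE), or 1.52-fold, with an adjusted p of 0.0041 in edgeR's QL test. The gene lies at chr10:110207605-110287365 on the plus strand.

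MXD4, MNT and MXD3 moved the other way. MXD4, a member linked to differentiation and quiescence, was at 7.58, 7.47 and 9.78 CPM in libraries A, B and C of PEO1 with prexasertib, against 14.5, 12.2 and 13.1 CPM in PEO1 with DMSO. The groups did not overlap, and the log2 fold change was -0.68 ± 0.23 (SE) with an adjusted p of 0.039 in edgeR's QL test. MXD4 lies at chr4:2247433-2262012 on the minus strand.

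MNT, the antagonist found in most cell types whether they divide or not, was at 6.64, 8.79 and 8.51 CPM in libraries A, B and C of PEO1 with prexasertib, against 10.3, 12.2 and 13.3 CPM in PEO1 with DMSO. All treated libraries were below all vehicle libraries. The log2 fold change was -0.58 ± 0.18 (SE) with an adjusted p of 0.026 in edgeR's QL test. MNT lies at chr17:2384060-2400964 on the minus strand.

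MXD3, the family member associated in mouse with S phase of dividing cells, was the scarcest antagonist in PEO1. It was at 1.06, 0.88 and 1.57 CPM in libraries A, B and C of PEO1 with prexasertib (18, 16 and 26 counts), against 2.74, 2.06 and 3.24 CPM in PEO1 with DMSO (42, 38 and 59 counts). The groups did not overlap, although the counts were few. The log2 fold change was -1.20 ± 0.40 (SE) with an adjusted p of 0.038 in edgeR's QL test. MXD3 lies at chr5:177305500-177312291 on the minus strand, and 731 of its 3161 exon bases overlap PRELID1 on the other strand. The kit keeps no strand, so reads there cannot be assigned with certainty. PRELID1 itself had a log2 fold change of -0.18 ± 0.19 (SE) in PEO1 with an adjusted p of 0.51 in the same test.

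The rises of MXD1 and MXI1 passed in every fit that left out 1 library, whereas the 3 falls did not. All 5 passed when the letter was a block. The falls of MXD3 and MXD4 lost their calls in limma-voom (adjusted p of 0.073 and 0.096) and, in edgeR's QL test, without the 4 libraries lettered A (0.058 and 0.086). The call for MXD3 ended, with adjusted p-values of 0.067, 0.098, 0.083 and 0.11 in edgeR's QL test, without PEO1 DMSO A, PEO1 DMSO C, PEO1 prexasertib A and PEO1 prexasertib B in turn. Without COV362 DMSO C it was at 0.0517 and without COV362 prexasertib C at 0.0506. All groups share 1 estimate of the spread, and leaving out a library also changed the genes tested. The part of each was not tested. The call for MXD4 ended without the same libraries, at 0.079, 0.056, 0.081 and 0.090 for those of PEO1 in that order, 0.0523 without COV362 DMSO C and 0.0508 without COV362 prexasertib C. The call for MNT ended without PEO1 DMSO B (0.052), PEO1 DMSO C (0.071) or PEO1 prexasertib A (0.075). The number of members called fell to 2 without PEO1 DMSO C or PEO1 prexasertib A, and to 3 without PEO1 prexasertib B, COV362 DMSO C or COV362 prexasertib C.

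The promoters of the 5 antagonists that changed in PEO1 are shown because the members that rose and the members that fell can be read side by side. They are RefSeq windows of 300 bases on GRCh38.p14, from 250 bases before to 50 after the annotated start, printed from 5′ to 3′ on the strand of the gene. Capitals mark a match to 1 of 3 motifs, CACGTG (the E-box), TGANTCA (the AP-1 motif) and the core of the interferon response element, which is GAAA, any 2 bases and GAAA again, each searched on both strands and chosen after the values were seen. The windows are chr2:69914859-69915158 for MXD1 (plus), chr10:110207355-110207654 for MXI1 (plus), chr4:2262060-2262359 for MXD4 (minus), chr17:2401011-2401310 for MNT (minus) and chr5:177312703-177313002 for MXD3 (minus). The RefSeq starts behind the windows of MXD3, MXD4 and MNT lie upstream of the outermost exon listed for each gene in the deposited table.
MXD1: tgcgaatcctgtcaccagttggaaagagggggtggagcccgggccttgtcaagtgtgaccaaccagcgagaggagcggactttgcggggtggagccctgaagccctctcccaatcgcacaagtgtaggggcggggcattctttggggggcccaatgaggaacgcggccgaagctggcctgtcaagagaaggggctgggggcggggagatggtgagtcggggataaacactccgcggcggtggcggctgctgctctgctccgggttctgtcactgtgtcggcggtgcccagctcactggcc
MXI1: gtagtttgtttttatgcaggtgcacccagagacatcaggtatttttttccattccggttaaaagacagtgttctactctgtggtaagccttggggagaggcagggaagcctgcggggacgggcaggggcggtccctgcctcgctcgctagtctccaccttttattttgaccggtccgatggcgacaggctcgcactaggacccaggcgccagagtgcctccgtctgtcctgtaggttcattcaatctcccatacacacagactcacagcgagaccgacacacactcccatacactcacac
MXD4: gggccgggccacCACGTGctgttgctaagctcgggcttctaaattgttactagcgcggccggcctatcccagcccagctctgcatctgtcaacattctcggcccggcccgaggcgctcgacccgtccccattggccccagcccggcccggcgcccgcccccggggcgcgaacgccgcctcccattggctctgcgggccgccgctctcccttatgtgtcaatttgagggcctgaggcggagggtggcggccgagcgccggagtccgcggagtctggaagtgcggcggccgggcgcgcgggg
MNT: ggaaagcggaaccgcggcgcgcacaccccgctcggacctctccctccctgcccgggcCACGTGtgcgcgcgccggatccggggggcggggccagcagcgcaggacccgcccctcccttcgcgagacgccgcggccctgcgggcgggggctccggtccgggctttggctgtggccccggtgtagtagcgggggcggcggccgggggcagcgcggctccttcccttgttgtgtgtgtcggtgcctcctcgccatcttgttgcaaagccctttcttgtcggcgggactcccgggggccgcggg
MXD3: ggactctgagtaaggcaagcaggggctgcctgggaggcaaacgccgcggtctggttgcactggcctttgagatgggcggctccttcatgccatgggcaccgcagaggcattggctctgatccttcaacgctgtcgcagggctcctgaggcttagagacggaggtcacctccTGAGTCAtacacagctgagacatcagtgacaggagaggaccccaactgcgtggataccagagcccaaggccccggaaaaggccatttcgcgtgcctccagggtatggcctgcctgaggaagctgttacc

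An E-box stood in the windows of MXD4, with its first base at -238 from the start, and of MNT, at -193, both members that fell. Among the 9 members with a window in the table, these 2 were the ones with an E-box. The windows of MXD1 and MXI1 held none of the 3 motifs. That of MXD3 held the AP-1 motif at -79, and no member's window held the interferon element core. Of 27305 promoters of the same length, 7.43% held CACGTG, 7.76% held TGANTCA and 3.65% held the interferon element core. A match is a run of letters in this window and not a measured binding site, and its absence says nothing about binding elsewhere.

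MYC itself was lower in the PEO1 libraries with drug, but not by more than the spread between replicates in the fit of group means. It was at 205, 137 and 177 CPM in libraries A, B and C of PEO1 with prexasertib, against 237, 196 and 222 CPM in PEO1 with DMSO. The groups overlapped, because treated library A lay above vehicle library B. The log2 fold change was -0.34 ± 0.20 (SE) with an adjusted p of 0.22 in edgeR's QL test. Within each letter the treated library was lower in 3 of 3 pairs. With the letter as a block the value was -0.35 ± 0.09 (SE) with an adjusted p of 0.0019, and MYC was then called lower.

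Exon length moved with the letters and MYC is a fairly short transcript, at 2366 exon bases and the 31.2 percentile of tested genes. With both the block and a correction for exon length, its log2 fold change in PEO1 was -0.31 with an adjusted p of 0.0011 in edgeR's QL test. Without the 4 libraries lettered A it was -0.42 with an adjusted p of 0.0495 in the same test. Over all alternatives the adjusted p for MYC in PEO1 ranged from 0.0011 to 0.44.

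MAX, the shared dimer partner, followed a similar pattern upward. It was at 98.0, 65.7 and 76.8 CPM in libraries A, B and C of PEO1 with prexasertib, against 67.4, 46.3 and 43.7 CPM in PEO1 with DMSO. Treated library B lay just below vehicle library A, so the groups overlapped, while 3 of 3 pairs of a letter were higher with drug. The log2 fold change was 0.61 ± 0.23 (SE) with an adjusted p of 0.057 in edgeR's QL test, which missed the threshold. With the letter as a block it was 0.62 ± 0.10 (SE) with an adjusted p of 2.7e-05, and over all alternatives the adjusted p ranged from 3.5e-06 to 0.26. Of 23 alternatives, 10 called MAX and 13 did not. Limma-voom called it (0.035), while DESeq2 did not (0.061). In edgeR's QL test it was called with the exon length correction (0.026), the 2 groups alone (0.020) and without the libraries lettered A (0.0034). MAX was also called without COV362 DMSO A (0.033), COV362 DMSO B (0.046), COV362 prexasertib A (0.038) or PEO1 DMSO A (0.032). MAX lies at chr14:65006101-65102695 on the minus strand.

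The other members showed no called change in PEO1. MGA was at 32.1, 43.4 and 30.3 CPM with prexasertib, against 28.2, 24.9 and 28.8 CPM with DMSO. Its groups did not overlap, as was true of 50.1% of all tested genes, and the log2 fold change of 0.37 ± 0.24 (SE) had an adjusted p of 0.26 in edgeR's QL test. MYCL was at 1.17, 1.87 and 2.78 CPM with prexasertib, against 2.22, 1.41 and 1.10 CPM with DMSO. Its libraries crossed freely, and its log2 fold change was 0.31 ± 0.39 (SE) with an adjusted p of 0.59. Counting MAX and MYC, the block called 7 of 9 members in PEO1, where it called 47.8% of all genes.

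In COV362, 1 of the 9 members tested was called, MXD1, against 0.828% of all genes (0.607% higher and 0.221% lower with drug). The median log2 fold change was 0.09 over the 9 members and -0.01 over all genes. MXD1 was at 11.5, 13.0 and 11.2 CPM in libraries A, B and C of COV362 with prexasertib, against 7.14, 6.24 and 6.06 CPM in COV362 with DMSO. The groups did not overlap, as for 14.5% of all tested genes in this comparison. The log2 fold change was 0.89 ± 0.15 (SE), or 1.85-fold, with an adjusted p of 0.011 in edgeR's QL test, and 0.00048 with the letter as a block. The call ended without COV362 prexasertib C (0.0504), COV362 DMSO B (0.068) or COV362 DMSO C (0.062), and when the 6 COV362 libraries were fitted alone (0.29).

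The remaining members had no called change in COV362. MYC was at 295, 202 and 250 CPM with prexasertib, against 265, 162 and 201 CPM with DMSO, so the treated library was the higher one in 3 of 3 letters while the groups overlapped. Its log2 fold change was 0.25 ± 0.20 (SE) with an adjusted p of 0.68 in edgeR's QL test, and 0.063 with the block. MXI1 was at 14.5 to 17.9 CPM with prexasertib, against 13.2 to 13.9 CPM with DMSO, and MNT at 12.9 to 15.07 CPM with prexasertib, against 15.12 to 17.6 CPM with DMSO. Neither pair of groups overlapped, and the adjusted p-values were 0.59 for MXI1 and 0.66 for MNT in the same test.

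MAX, MXD3, MXD4, MGA and MYCL had log2 fold changes between -0.09 and 0.16 in COV362, with adjusted p-values of 0.92 to 0.99 in edgeR's QL test, and each of these changed sign when 1 or more libraries were left out. MXD4 there was at 90.3, 44.5 and 74.2 CPM with prexasertib, against 81.5, 64.0 and 75.9 CPM with DMSO. Library B was the lowest in both groups, and the difference between treated libraries exceeded that between groups. The 95% interval of its log2 fold change ran from -0.54 to 0.37.

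**Figure D2:**
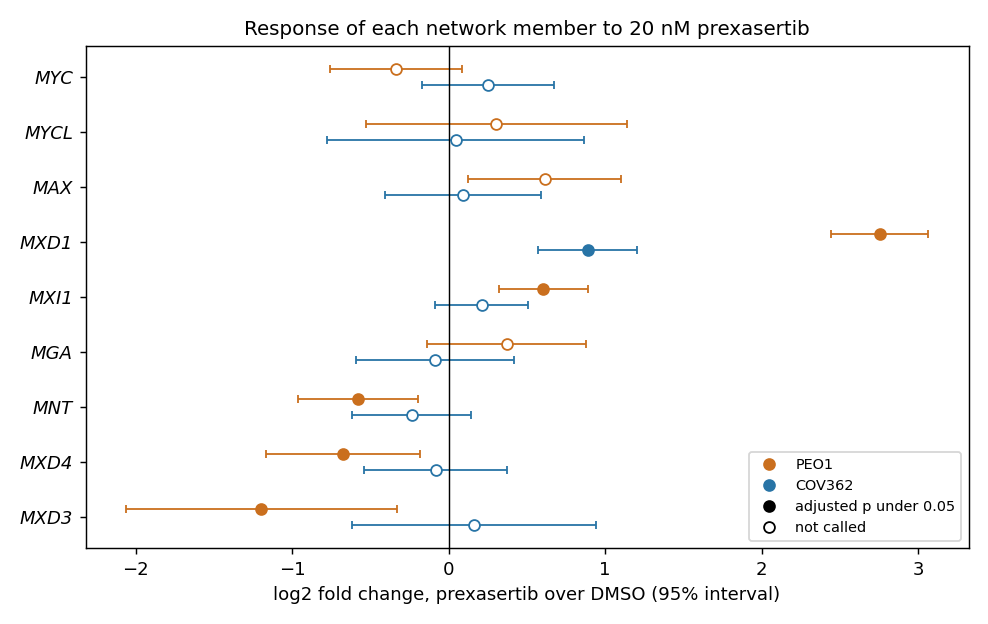
Log2 fold change of each tested member, prexasertib over DMSO, with its 95% interval from edgeR's QL fit; PEO1 is drawn above COV362 for each gene, and filled points have an adjusted p under 0.05. MXD1 is filled in both lines, at 2.76 in PEO1 and 0.89 in COV362, and the other filled points, MXI1, MNT, MXD4 and MXD3, belong to PEO1.

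The responses of the lines were compared directly, as the log2 fold change in PEO1 minus that in COV362. MXD1 was the member whose response differed, among the 9 tested, by 1.87 ± 0.20 (SE) on the log2 scale with an adjusted p of 0.00034 in edgeR's QL test. Of all genes, 6.1% were called in this contrast, 3.14% with a higher and 2.97% with a lower response in PEO1. The difference for MYC was -0.59 ± 0.28 (SE) with an adjusted p of 0.21, and its 95% interval ran from -1.18 to 0.01. The difference for MXI1, called in PEO1 and not in COV362, was 0.40 ± 0.19 (SE) with an adjusted p of 0.21 and is not shown to differ.

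With the letter as a block, 5 members differed instead of 1, where 29.1% of all genes were called. The added members were MYC at -0.61 ± 0.12 (SE, adjusted p of 0.00087 in edgeR's QL test), MAX at 0.52 ± 0.14 (0.01), MXD3 at -1.32 ± 0.45 (0.031) and MXD4 at -0.56 ± 0.21 (0.0498). MXD4 was also called without COV362 prexasertib B, at -0.84 with an adjusted p of 0.036. MNT, MXI1, MGA and MYCL were not called under the block.

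The balance of transcripts shifted towards the antagonists in PEO1. The summed level of the 3 activators over that of the 6 antagonists, in CPM per kilobase, was 2.50, 1.80 and 2.30 in libraries A, B and C of PEO1 with prexasertib, against 5.10, 4.30 and 4.61 in PEO1 with DMSO. No treated library reached the lowest vehicle library, and the mean log2 ratio was lower by 1.10 with drug. The antagonist sum averaged 33.4 ± 1.28 CPM per kilobase with prexasertib and 19.8 ± 0.53 with DMSO, and the activator sum 73.6 ± 14.4 with prexasertib and 92.7 ± 8.87 with DMSO (SD, n = 3 each). The antagonist sum holds the called rises of MXD1 and MXI1, the called falls of MXD4, MNT and MXD3, and the uncalled MGA, so its members move in opposite directions. The sums and ratios were given no test.

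In COV362 the same ratio was 3.27, 3.03 and 3.04 in libraries A, B and C with prexasertib, against 3.18, 2.15 and 2.48 with DMSO. The groups overlapped, since vehicle library A lay above treated libraries B and C. The mean log2 ratio was 0.28 higher with drug, and the antagonist sum was 33.8 ± 5.05 CPM per kilobase with prexasertib and 34.0 ± 1.67 with DMSO (SD, n = 3 each).

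The make-up of the antagonist sum changed with drug in PEO1. MXD1 supplied 38.2% ± 1.71 of it with prexasertib and 9.53% ± 0.31 with DMSO, while MXD4 supplied 6.59% ± 1.15 with prexasertib and 17.7% ± 1.51 with DMSO (SD, n = 3 each). MXI1 held 40.3% ± 2.17 with prexasertib and 44.7% ± 1.81 with DMSO. In COV362 MXD4 was the main antagonist transcript, at 53.5% ± 10.8 with prexasertib and 57.4% ± 4.25 with DMSO, and MXD1 held 6.42% ± 1.53 with prexasertib and 3.4% ± 0.24 with DMSO (SD, n = 3 each).

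**Figure D3:**
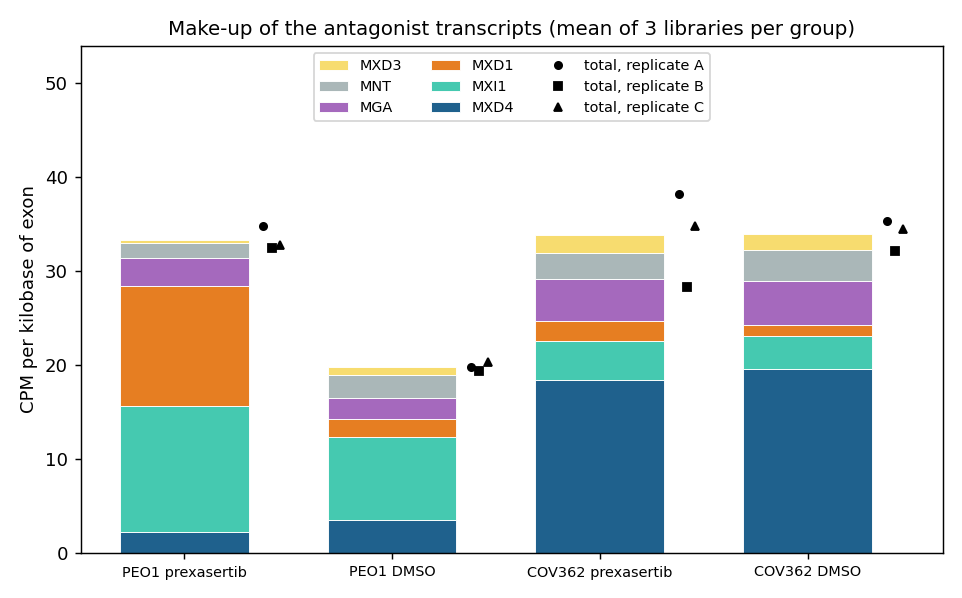
Stacked mean level of the 6 antagonist transcripts in CPM per kilobase of exon (axis from 0), prexasertib left of DMSO in PEO1 and then in COV362; points beside each bar give the sum in each library. The PEO1 sum is 33.4 with prexasertib and 19.8 with DMSO, with MXD1 taking 38.2% and 9.53% of it, while MXD4 is over 50% in both COV362 groups.

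MYC was set against single partners in the same way. MYC over MXD1 was 6.26, 4.63 and 6.26 in PEO1 with prexasertib, against 55.4, 44.4 and 47.1 in PEO1 with DMSO. In COV362 it was 60.6, 36.8 and 53.0 with prexasertib, against 88.1, 61.6 and 78.7 with DMSO. The COV362 groups did not overlap either, though by a narrow margin. MYC over MAX averaged 2.77 ± 0.15 with prexasertib and 5.49 ± 0.99 with DMSO in PEO1, and 8.5 ± 0.53 with prexasertib and 7.59 ± 0.27 with DMSO in COV362 (SD, n = 3 each). These are ratios of transcripts and say nothing of protein or of dimers on DNA.

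**Figure D4:**
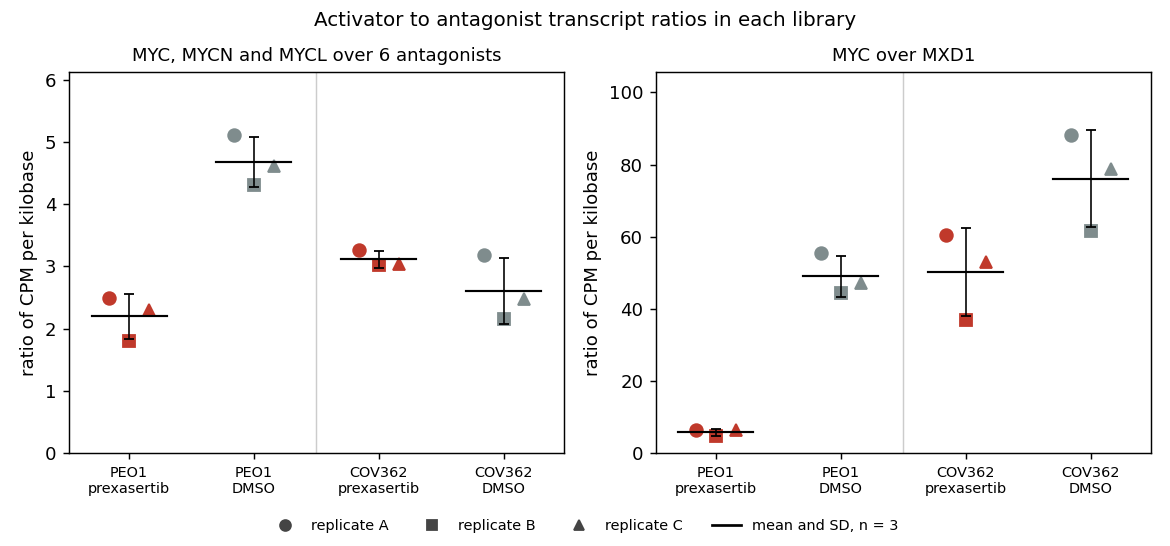
Ratios of CPM per kilobase in every library on linear axes from 0, prexasertib left of DMSO in PEO1 and then in COV362, with the mean and SD of 3 libraries: activators over antagonists at left and MYC over MXD1 at right. The PEO1 ratios are 1.80 to 2.50 with prexasertib and 4.30 to 5.10 with DMSO at left, and 4.63 to 6.26 and 44.4 to 55.4 at right.

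Without drug, the lines already differed in 7 of the 9 members tested, where 57.7% of all genes were called (29.1% higher and 28.6% lower in PEO1). MXI1, MXD1 and MAX were higher in PEO1, and MXD4, MGA, MXD3 and MNT were lower. MXD4 was at 14.5, 12.2 and 13.1 CPM in libraries A, B and C of PEO1 with DMSO, against 81.5, 64.0 and 75.9 CPM in COV362 with DMSO. That wide gap gave a log2 fold change of -2.48 ± 0.23 (SE) with an adjusted p of 6.2e-07 in edgeR's QL test. MXI1 was at 33.6, 34.6 and 33.7 CPM in PEO1, against 13.2, 13.8 and 13.9 CPM in COV362, and its log2 fold change was 1.32 ± 0.14 (SE, adjusted p of 2.2e-06).

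MGA was at 28.2, 24.9 and 28.8 CPM in PEO1 with DMSO, against 43.4, 73.7 and 53.2 CPM in COV362 with DMSO, and its log2 fold change was -1.06 ± 0.24 (SE, adjusted p of 0.0017 in edgeR's QL test). MXD1 was higher in PEO1 by 0.72 ± 0.15 (SE, 0.00084) on the log2 scale. The groups of MXD4, MXI1, MGA, MXD1, MXD3 and MNT did not overlap, as was true of 63.5% of all tested genes. MYC was nearly level between the lines, at a log2 fold change of 0.06 ± 0.20 (SE) with a 95% interval of -0.36 to 0.49 and an adjusted p of 0.8, and MYCL had -0.62 ± 0.39 (SE, 0.19).

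The calls for MAX (0.57 ± 0.23, adjusted p of 0.047 in edgeR's QL test), MXD3 (-0.95 ± 0.37, 0.041) and MNT (-0.43 ± 0.18, 0.048) were close to the threshold. MAX had overlapping libraries and lost its call without COV362 DMSO B (0.17), COV362 DMSO C (0.13), COV362 prexasertib C (0.060), PEO1 DMSO A (0.23), PEO1 DMSO B (0.053) or PEO1 prexasertib C (0.058). MXD3 lost it without COV362 DMSO A (0.14), COV362 DMSO C (0.079), COV362 prexasertib C (0.053), PEO1 DMSO A (0.076) or PEO1 DMSO B (0.13). Beyond single libraries, MAX lost it with DESeq2's size factors (0.0503) and with the 2 groups fitted alone (0.052), and MXD3 in limma-voom (0.059) and without the 4 libraries lettered A (0.12). MNT lost it without a filter on low counts (0.11), with the 2 groups alone (0.058) and without the libraries lettered A (0.13). MNT also lost it without any 1 of the 6 DMSO libraries (0.0504 to 0.17), COV362 prexasertib C (0.056), PEO1 prexasertib B (0.056) or PEO1 prexasertib C (0.062). The count fell to 4 without COV362 prexasertib C, COV362 DMSO C, PEO1 DMSO A or PEO1 DMSO B.

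The parallel MLX branch included TXNIP, the gene with the largest drug response among all lists examined here. In PEO1, 2 of its 5 genes rose and 1 fell, which is 60% of the list against 29.3% of all genes called. This list and those below were chosen with earlier results of these data known, so their shares are no test of enrichment. TXNIP, an arrestin that restrains glucose uptake and is a classic target of MLXIP with MLX, was at 376, 389 and 347 CPM in PEO1 with prexasertib, against 23.8, 27.0 and 21.0 CPM with DMSO. Its log2 fold change was 3.95 ± 0.17 (SE) with an adjusted p of 7.8e-09 in edgeR's QL test. ARRDC4, a related arrestin with the same regulators, had a log2 fold change of 2.97 ± 0.25 (SE, 4.3e-06), and MLXIP itself, known as MondoA, one of -0.39 ± 0.11 (SE, 0.017). The list's median was -0.27, since MLX and MLXIPL, which were not called, also had values under 0. With a filter of at least 1 CPM in 3 libraries, 4 of the 5 genes were tested and the median was 1.35.

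In COV362 none of the 5 genes of that branch was called in edgeR's QL test, while 2 were higher before adjustment (p under 0.05), DESeq2 called 1 and limma-voom called 0. ARRDC4 was at 18.4, 26.4 and 24.6 CPM in COV362 with prexasertib, against 7.62, 15.4 and 13.8 CPM with DMSO, and its log2 fold change of 0.90 ± 0.23 (SE) had an adjusted p of 0.092. With the letter as a block 2 genes were called higher, and ARRDC4 had an adjusted p of 0.0014. Without drug, TXNIP was at 23.9 ± 2.99 CPM in PEO1 and 231 ± 32 CPM in COV362 (SD, n = 3 each).

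The repressor machinery changed in both directions in PEO1. Of 15 genes of the SIN3 and histone deacetylase complex, 4 rose and 4 fell, with a median log2 fold change of 0.04, which was -0.0029 with DESeq2's size factors. That is 53.3% of the list called, against 29.3% of all genes. ARID4A, ARID4B and SAP18, subunits of the complex, rose by 1.33 ± 0.40, 0.99 ± 0.22 and 0.79 ± 0.17 (SE) on the log2 scale, with adjusted p-values of 0.024, 0.0049 and 0.003 in edgeR's QL test. The genes that fell, named after their values were seen, were the scaffolds SIN3A (-0.37) and SIN3B (-0.63), the deacetylase HDAC1 (-0.65) and the histone chaperone RBBP7 (-0.53). The call for ARID4A ended without PEO1 prexasertib B (0.092), PEO1 prexasertib C (0.061), PEO1 DMSO A (0.097), PEO1 DMSO B (0.074) or PEO1 DMSO C (0.063), and without PEO1 DMSO B the list's count was 5 instead of 8.

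Of 10 genes of the PRC1.6 complex that holds MGA, 2 rose and 3 fell in PEO1, which is 50% of the list against 29.3% of all genes, with a median of -0.08. E2F6, its DNA-binding E2F repressor, and RYBP, a core component of variant Polycomb complexes, rose by 0.71 ± 0.15 and 0.54 ± 0.14 (SE) on the log2 scale, and L3MBTL2, a histone-binding subunit, fell by 0.61 ± 0.17 (SE). Their adjusted p-values were 0.0027, 0.0088 and 0.015 in edgeR's QL test. The call for RYBP ended without PEO1 DMSO B (0.060) or PEO1 DMSO C (0.056), and that for L3MBTL2 without the 4 libraries lettered A (0.060).

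In COV362 no gene of either complex was called. For the SIN3 list no gene had an unadjusted p under 0.05 and DESeq2 and limma-voom called 0. For PRC1.6 the unadjusted count was 2, both lower, and DESeq2 and limma-voom again called 0. Under the block, which called 9.65% of all genes in COV362, 1 gene of the SIN3 list was called higher and 1 of PRC1.6 lower, which was TFDP1, the partner of E2F proteins, at -0.32 with an adjusted p of 0.026 in edgeR's QL test. With the block and the exon length correction together the direction for the SIN3 list turned, to 0 higher and 2 lower, and PRC1.6 had 1 higher and 2 lower.

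Of 13 cofactors of the MYC protein, 1 rose and 1 fell in PEO1, which is 15.4% of the list against 29.3% of all genes, with a median of -0.06. The block called 2 higher and 4 lower, where 47.8% of all genes were called. CCNT1, the cyclin of the elongation factor P-TEFb, rose by 1.14 ± 0.25 (SE) on the log2 scale with an adjusted p of 0.0043 in edgeR's QL test. KAT2A, the acetyltransferase known as GCN5, fell by 0.78 ± 0.13 (SE) with an adjusted p of 0.00063. In COV362 none of the 13 was called, none had an unadjusted p under 0.05, and DESeq2 and limma-voom called 0.

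Of 17 genes that modify MYC protein or act on its turnover (the turnover genes), 2 rose and 3 fell in PEO1, with a median of -0.05. At 29.4% of the list, this share is that of all genes (29.3%), and the genes named here are described singly. FBXO28, an F-box protein whose ubiquitin ligase marks MYC, was at 89.3 ± 15.1 CPM with prexasertib and 30.2 ± 2.87 CPM with DMSO (SD, n = 3 each), a log2 fold change of 1.56 ± 0.25 (SE) with an adjusted p of 0.00048 in edgeR's QL test. PLK1, the mitotic kinase that stabilises MYC proteins, fell by 0.97 ± 0.12 (SE, 6.1e-05), and STUB1, the ligase known as CHIP, fell by 0.95 ± 0.26 (SE, 0.014). The call for STUB1 ended without the 4 libraries lettered A (0.088).

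In COV362 no turnover gene was called, although before adjustment 1 was higher and 2 were lower (p under 0.05). DESeq2 called 1 higher and 1 lower, limma-voom called 0, and the block called 1 higher and 1 lower. SKP2, an F-box protein that both marks MYC for turnover and assists its activity, was at 56.2 ± 4.3 CPM with prexasertib and 78.4 ± 8.74 CPM with DMSO in COV362 (SD, n = 3 each). Its log2 fold change was -0.48 ± 0.12 (SE) with an adjusted p of 0.086 in edgeR's QL test and 0.0029 with the block. Without COV362 prexasertib A, 1 turnover gene was called.

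Known MYC-induced genes of growth and the nucleolus did not move as 1 group. In PEO1, 5 of the 35 tested rose and 5 fell, a share near the 29.3% of all genes, with a median log2 fold change of -0.16. ODC1, the rate-limiting enzyme of polyamine synthesis, was at 1171, 1083 and 1096 CPM in PEO1 with prexasertib, against 369, 373 and 337 CPM with DMSO. Its log2 fold change was 1.64 ± 0.11 (SE) with an adjusted p of 8e-07 in edgeR's QL test. RRP12, a ribosome assembly factor, rose by 0.97 ± 0.13 (SE, 0.00014), and SLC19A1, the folate carrier, fell by 1.16 ± 0.25 (SE, 0.0035). Under the block the counts were 8 higher and 11 lower, where 47.8% of all genes were called.

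In COV362, 1 of the 35 was called in edgeR's QL test, RRP12. It was at 107, 113 and 135 CPM with prexasertib, against 75.7, 61.6 and 69.0 CPM with DMSO, with no overlap. Its log2 fold change was 0.78 ± 0.13 (SE) with an adjusted p of 0.01, and the call ended without COV362 prexasertib C (0.075) or COV362 DMSO B (0.063) and in a fit of the COV362 libraries alone (0.21). The list's median was 0.06, and the block called 5 higher and 2 lower, where it called 9.65% of all genes. In the RefSeq promoter windows, 13 of 28 genes of this list that matched (46.4%) held the E-box CACGTG, against 7.43% of all promoters. The list was chosen as MYC-induced genes, so this share is no test. Among the other lists it was 40% for the MLX branch, 30.8% for the turnover genes and 28.6% for the MYC cofactors. It was 10% for PRC1.6, 7.14% for the SIN3 list and 0 of 5 for the genes that MYC is known to repress.

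Among 8 genes that MYC is known to repress, CDKN1A and GADD45A rose in both lines. The called share was 37.5% of the list in PEO1, where NDRG2 fell as well, against 29.3% of all genes, and 25% in COV362, against 0.828% of all genes. As the list was chosen with earlier results of these data known, these shares do not test it as a set. CDKN1A, which encodes the cell cycle inhibitor p21 and is also induced by p53, was at 65.6, 44.0 and 48.0 CPM in PEO1 with prexasertib, against 6.66, 5.48 and 8.08 CPM with DMSO. In COV362 it was at 18.8, 19.4 and 21.9 CPM with prexasertib, against 4.96, 6.57 and 8.73 CPM with DMSO. The log2 fold changes were 2.96 ± 0.23 in PEO1 and 1.55 ± 0.23 in COV362 (SE), with adjusted p-values of 2.5e-06 and 0.0056 in edgeR's QL test.

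GADD45A, a stress gene of DNA damage, had log2 fold changes of 2.62 ± 0.17 in PEO1 and 1.23 ± 0.16 in COV362 (SE), with adjusted p-values of 3.6e-07 and 0.0032 in edgeR's QL test. The COV362 calls of both genes ended in a fit of the COV362 libraries alone (0.087 each). NDRG2 fell in PEO1 by 1.52 ± 0.19 (SE) with an adjusted p of 0.00011 in the same test, against the direction of the other called genes. The list's median was 0.16 in PEO1 and 0.35 in COV362, and it holds genes with regulators other than MYC.

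The genes whose pattern lay closest to MYC and to MXD1 were sought over the 12 libraries, on log2 CPM with each line's mean removed, among 9538 genes. Closest to MYC were SRM (Pearson's r of 0.981), TOMM40 (0.974), RUVBL2 (0.966), MRPS2 (0.964) and TNIP1 (0.96). SRM makes spermidine, TOMM40 forms the mitochondrial import pore, RUVBL2 is a chromatin ATPase, MRPS2 is a mitochondrial ribosomal protein and TNIP1 damps NF-kappaB signalling. SRM averaged 70.0 CPM in PEO1 with prexasertib and 89.5 CPM with DMSO, and 197 CPM with prexasertib and 161 CPM with DMSO in COV362. None of the 5 was called in either line, and all share the libraries and their letters with MYC. The part of the letter and of exon length in these values was not tested.

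Closest to MXD1 were IFIT2 (0.993), CCDC174 (0.99), UFM1 (0.988), C1orf109 (0.987) and OASL (0.987). IFIT2 and OASL are interferon-induced genes and UFM1 is a ubiquitin-like modifier. IFIT2 averaged 443 CPM in PEO1 with prexasertib and 31.5 CPM with DMSO, and 123 CPM with prexasertib and 61.3 CPM with DMSO in COV362. Its log2 fold changes were 3.82 in PEO1 and 1.01 in COV362, with adjusted p-values of 5.8e-09 and 0.0048 in edgeR's QL test. All 5 were called higher in PEO1, and IFIT2 and OASL also in COV362. With 4 group levels behind 12 libraries, such high r values describe these libraries and carry no test.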

How the data were processed

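RNA sequencing of 12 libraries in 4 groups of 3 was analysed. Libraries were made with the unstranded TruSeq RNA Library Prep Kit v2, per the labels' protocols. STAR, Subread and featureCounts 1.4.6 were used with hg38, per the submitters' processing notes, with no role or order given. The authors deposited raw counts per gene with exon lengths and no normalization. EIF4A1, whose exons overlap the readthrough gene SENP3-EIF4A1, was listed at 0 in all 12 libraries, so reads over shared exons may be missing from such genes.

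Members and gene lists were chosen with earlier results of these data known. Named list genes were up to 3 called genes with the largest change per list and line at a mean of at least 1 CPM, or else the gene with the lowest p. The likeness search kept 9538 genes averaging 5 CPM or more in PEO1 and also in COV362 and used a pseudocount of 0.5.

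Counts were filtered with filterByExpr (minimum count 10, minimum total 15), scaled by TMM and fitted in edgeR 4.0.16 (R 4.3.3) as 4 group means over 12 libraries, with quasi-likelihood F-tests and BH adjustment over 14498 genes. The 4 contrasts were prexasertib against DMSO in each line, the difference between these, and PEO1 DMSO against COV362 DMSO. The steps were tested on simulated data. Library totals, 9390790 to 18262805, set the counting precision.

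Same-letter libraries of different groups deviated together in all 12 pairs (r of 0.115 to 0.547 across genes). Pairs of different letters ran from -0.557 to 0.334, and some lay above same-letter pairs of the same groups. PEO1 prexasertib B, for example, had 0.303 with PEO1 DMSO C and 0.243 with PEO1 DMSO B. The letter was taken to pair libraries and entered as a block in an alternative fit, but the pairing is not established. Other alternatives were limma-voom (limma 3.58.1), DESeq2 1.42.0, its size factors, other filters, an exon length correction, fits of 2 groups, leaving out libraries and a threshold of 0.01. Promoter windows came from RefSeq (GRCh38.p14), matched by symbol for 9 of 10 members; MYC had no entry.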

Additional observations from a re-analysis of the deposited data

Results flagged for a closer look

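The response of MXD1 to prexasertib differed between the lines by 1.87 on the log2 scale, PEO1 minus COV362, in a direct test of that difference. MXD1 was at 67.1 to 77.9 CPM in PEO1 with prexasertib and 10.2 to 11.2 CPM with DMSO, and at 11.2 to 13.0 CPM in COV362 with prexasertib and 6.06 to 7.14 CPM with DMSO. Over 22 alternatives the difference stayed between 1.68 and 1.94, with adjusted p-values no higher than 0.0031.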

How the results depend on the processing

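Over all alternatives run, the PEO1 rises of MXD1 (2.64 to 2.76) and MXI1 (0.49 to 0.62) and the difference between lines for MXD1 kept their calls. The number of members called was 0 in COV362 both with the 2 groups fitted alone and at a threshold of 0.01, and 0 to 1 when each library was left out. In PEO1 it was 2 at 0.01 and 2 to 6 when each library was left out. For the difference between lines it was 5 with the replicate block, 5 with the block and the exon length correction, and 1 to 2 when each library was left out. For the DMSO comparison of lines it was 4 at 0.01 and 4 to 7 when each library was left out. Values that changed sign were all uncalled: MGA in COV362 was 0.0789 with the exon length correction and 0.0794 with it and the block, and without the 4 libraries lettered A MYCL was -0.0435 and MXD3 -0.00591 in COV362. Leaving out 1 library gave ranges in COV362 of -0.0601 to 0.22 for MYCL, -0.0792 to 0.31 for MAX, -0.24 to 0.44 for MXD3, -0.31 to 0.15 for MXD4 and -0.33 to 0.15 for MGA. It gave -0.0892 to 0.57 for MYCL in PEO1, -0.14 to 0.52 for its difference between lines, and -0.0907 to 0.27 for MYC in the DMSO comparison. The ratio of activators to antagonists stayed between -1.20 and -0.96 in PEO1 and between 0.15 and 0.43 in COV362 on the log2 scale over 8 alternatives each. Over all genes, the calls were 120 in COV362, 4249 in PEO1 and 885 for the difference, against 1399, 6926 and 4219 with the block. In COV362 they were 533 with DESeq2, 244 with the exon length correction, 330 without the libraries lettered A and 10 with the 2 groups alone, and for the difference 1966 with DESeq2 and 1591 with the length correction. The cause was not tested. Beyond the blocked values given with the results, pairing by letter changed no other member's call. A fit of 2 groups cannot give the difference between lines. Alternatives for list genes were chosen after seeing the data. At 16 to 26 counts per treated PEO1 library, MXD3 limits any statement on its size of change.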
